A study of Homo sapiens with 10 samples.

Results

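The 10 genes described here encode the 2 chaperonin systems of human cells. TCP1, CCT2, CCT3, CCT4, CCT5, CCT6A, CCT7 and CCT8 encode the 8 subunits of the cytosolic chaperonin CCT, also called TRiC, and HSPD1 and HSPE1 encode mitochondrial HSP60 and its lid HSP10. They were chosen by name as the 10 rows of the deposited count table, of 63140 in all, whose Ensembl identifiers carry these symbols. The rule uses names alone, though the genes were proposed with earlier results of these data known. RNA had been sequenced from HS-SY-II, a human synovial sarcoma cell line, in 5 groups of 2 biological replicates, which gave 10 libraries. Of these groups, 4 had received 100 nM of WA-68, a PROTAC that targets the bromodomain protein BRD9 for degradation, for 12, 24, 48 or 96 h, and the fifth had received the vehicle DMSO. When the DMSO cells were harvested is not stated in the labels, so time in culture and treatment cannot be told apart, and all groups come from 1 cell line. The labels do not say that the biological replicates were grown separately, and p-values then measure the spread between these samples, which may be technical.

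Chaperonins are barrel-shaped machines that take an unfolded protein into a closed chamber and release it after a cycle of ATP hydrolysis. CCT folds newly made actin, tubulin and many proteins with WD40 repeats, among them the cell cycle activator CDC20, and each of its subunits holds a fixed place in the ring. HSP60 works in the mitochondrial matrix on imported proteins, with HSP10 as the lid of its chamber. The HSPD1 and HSPE1 genes lie head to head and share a bidirectional promoter that the heat shock factor HSF1 is known to use. BRD9 is a subunit of a SWI/SNF chromatin remodelling complex that synovial sarcoma cells depend on.

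The short sequences below come from RefSeq promoter windows (GRCh38.p14; 250 bases before to 50 bases after each annotated start) and are shown because they hold the motif matches that the HSPD1-HSPE1 promoter and the CCT promoters have. RefSeq windows were matched for 9 of the 10 genes, 12 windows in all; CCT6A had no match. Each line gives 30 bases, 5′ to 3′ on the gene's strand, with the motif match in capitals. The first stretch (chr2:197500061-197500090, minus strand) lies before the downstream HSPD1 start and holds overlapping matches, on both strands, to a heat shock element of 3 alternating units (GAANNTTC, then NN and GAA). The second (chr2:197500345-197500374, plus strand) lies in the 104 bases between the upstream HSPD1 start at 197500274 and the HSPE1 start at 197500379, and holds the E-box CACGTG. The next 5 hold CCAAT, read as ATTGG where it lies on the other strand: TCP1 at chr6:159789739-159789768 (minus), CCT2 at chr12:69585356-69585385 (plus), CCT3 at chr1:156338350-156338379 and chr1:156338309-156338338 (minus), and CCT8 at chr21:29073694-29073723 (minus). The last pair holds the shorter heat shock unit GAANNTTC, in TCP1 at chr6:159789815-159789844 (minus) and CCT2 at chr12:69585789-69585818 (plus). RefSeq windows often reach into exons of transcripts with other starts: in GENCODE v29, 7 of the 9 stretches lie wholly in exons of their own gene (that of HSPD1 also in an HSPE1 exon on the other strand), the TCP1 CCAAT stretch has 11 bases in a TCP1 exon, and the TCP1 GAANNTTC stretch lies in an exon of MRPL18 on the other strand.
HSPD1 heat shock element: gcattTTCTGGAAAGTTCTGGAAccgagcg
HSPE1 CACGTG: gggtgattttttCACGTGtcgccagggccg
TCP1 CCAAT: atcggctatctaATTGGacaaaaatgccga
CCT2 CCAAT: gcccgtggggctCCAATcaaaatgggacgc
CCT3 CCAAT a: ctaaggctgtcaATTGGtctgtttttgtgc
CCT3 CCAAT b: atgggtgcggtgATTGGcgactaccttgag
CCT8 CCAAT: aagggtgggctaATTGGagagccaggaaga
TCP1 GAANNTTC: tcgtttgaggcGAAGGTTCaacctcttccc
CCT2 GAANNTTC: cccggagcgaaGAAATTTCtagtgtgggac

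Both strands were searched in all 35116 RefSeq windows of 300 bases. The element of 3 units was in 0.49% of all windows and, among the chaperonin genes, in that of HSPD1. GAANNTTC, which is contained in the longer element, was in 6.77% of all windows and in those of TCP1, CCT2 and HSPD1. CACGTG was in 7.26% of all windows and in those of HSPD1 and HSPE1, which overlap, so that both matches are 1 site. CCAAT was in 34.6% of all windows and in those of 4 CCT genes, and the GC box GGGCGG was in 45% of all windows and in those of 7 of the 9 genes. CCGGAAG, a core motif of ETS factors, was in 10.3% of all windows and in that of CCT2. TATAAA was in 11.5% of all windows and in 0 of the 12. A match is a description of the letters, not a binding site, and binding was not measured here.

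All 10 chaperonin transcripts were lower in WA-68-treated cells than in DMSO-treated cells at each of the 4 times by the fitted log2 fold change, and most of the differences passed the test at 48 and 96 h. In edgeR's quasi-likelihood test, with Benjamini-Hochberg adjustment over 16382 genes and a threshold of 0.05, none of the 10 was called at 12 h (1.92% of all genes tested were called lower) or at 24 h (2.25%). At an unadjusted p under 0.05, 4 of the 10 passed at 12 h and 7 at 24 h, while DESeq2 and limma-voom each called 0 at 12 h and 1 at 24 h. How many of all genes passed unadjusted, or with DESeq2 or limma-voom, was not counted. Such counts, here and below, are a description. At 48 h, 7 of 10 were called lower (5.38% of all genes tested were), and at 96 h, 9 of 10 were (6.86%). None was called higher at any time (1.23, 1.34, 4.01 and 6.14% of all genes tested were, in order of time). The median log2 fold change of the 10 genes was -0.16, -0.21, -0.33 and -0.40 at 12, 24, 48 and 96 h, where that of all genes tested was -0.0021, -0.00085, -0.0070 and -0.0083. At 96 h the fitted changes of the single genes ran from -16.3 to -31.6%, and none of them lay below the value of -0.58 under which the lowest 5% of all genes tested fell. The 4 comparisons share the same DMSO libraries and are not independent of each other.

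**Figure D1:**
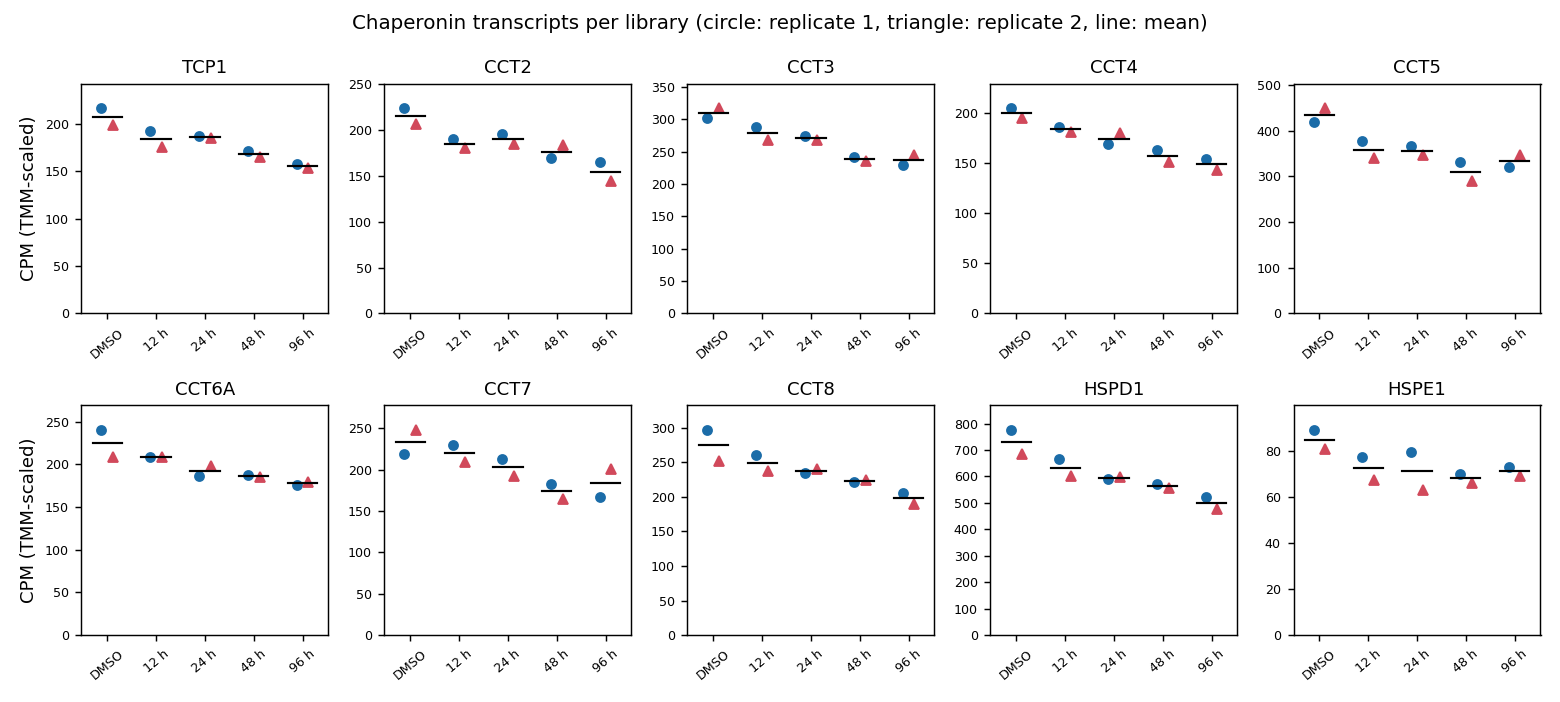
Scaled level (CPM, with TMM factors) of each chaperonin gene in each of the 10 libraries, by group, with the group mean. In each gene both 24 h, both 48 h and both 96 h libraries lie below both DMSO libraries. All times share these DMSO libraries, and how many of all genes tested separate in this way was not counted.

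HSPD1, which encodes HSP60 (ENSG00000144381, chromosome 2, 197486581 to 197516737, minus strand), was the most abundant of the 10 and had the largest fitted fall at 96 h. Its level in CPM, counts per 1000000 assigned counts of the library after TMM scaling, was 776 and 684 in the DMSO libraries, 665 and 602 (12 h), 589 and 600 (24 h), 573 and 556 (48 h), and 522 and 476 (96 h). Every treated library lay below both DMSO libraries, and both 96 h libraries lay below all others. The log2 fold change against DMSO was -0.37 (SE 0.087, adjusted p = 0.00816 in edgeR's test) at 48 h and -0.55 (SE 0.087, adjusted p = 0.000126) at 96 h, a 1.46-fold lower level. At 24 h it was -0.30, with an adjusted p of 0.0581. HSPD1 was also lower at 96 h than at 12 h, by a log2 difference of -0.34 (adjusted p = 0.0241), a call that was lost when either 12 h library, either 24 h library or 96 h replicate 2 was left out. Its 48 h call was lost without DMSO replicate 1 or 48 h replicate 1 (adjusted p = 0.0503 in each) and without 48 h replicate 2 (0.131).

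HSPE1, which encodes HSP10 (ENSG00000115541, chromosome 2, 197499994 to 197503457, plus strand), was lower in treated cells but passed the test at no time in the fit over all libraries. It was at 89.2 and 80.8 CPM in DMSO, 77.4 and 67.6 (12 h), 79.8 and 63.0 (24 h), 70.3 and 66.1 (48 h), and 73.3 and 69.0 (96 h). All treated libraries lay below both DMSO libraries, but the groups of treated libraries overlapped one another. The log2 fold changes were -0.32 at 48 h (adjusted p = 0.0618) and -0.26 at 96 h (adjusted p = 0.119). HSPE1 was called at 48 h in 7 of 24 alternatives, among them the GC offset (adjusted p = 0.0118), and at 96 h in 2, both with the GC offset (0.0472 without a replicate block). The ratio of HSPD1 to HSPE1 CPM, which is not corrected for length, was 8.70 and 8.46 in the DMSO libraries and 7.12 and 6.90 in the 96 h libraries, the lowest values of the 10 libraries. In between it ran from 7.39 to 9.52, both in the 24 h libraries, and the ratio was not tested. HSPE1 was covered by 492 to 1148 counts per library and HSPD1 by 3395 to 9982, so HSPE1 was measured less precisely.

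CCT8, which encodes the theta subunit (ENSG00000156261, chromosome 21, 29055805 to 29073797, minus strand), fell most among the CCT genes by the fitted value at 96 h, next to CCT2. CCT8 was at 297 and 253 CPM in DMSO, 260 and 237 (12 h), 235 and 241 (24 h), 222 and 225 (48 h), and 206 and 189 (96 h). The 12 h libraries overlapped the DMSO libraries, and the later groups did not. Its log2 fold change was -0.30 at 48 h (SE 0.094, adjusted p = 0.0446) and -0.48 at 96 h (SE 0.094, adjusted p = 0.0012). The 48 h call of CCT8 is near the threshold and was lost in the leave-one-out fits without DMSO replicate 1 (adjusted p = 0.264), without either 12 h library (0.0888 and 0.0873), without either 24 h library (0.0737 and 0.0893) and without either 48 h library (0.197 and 0.24). CCT8 was lower at 96 h than at 12 h, by -0.33 (adjusted p = 0.048), a call that 16 of 24 alternatives lost, 7 of them by leaving out 1 library (12 h, 24 h or 48 h, either replicate, or 96 h replicate 2).

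CCT2, the beta subunit (ENSG00000166226, chromosome 12, 69585334 to 69601570, plus strand), was at 224 and 206 CPM in DMSO, 190 and 180 (12 h), 196 and 185 (24 h), 170 and 183 (48 h), and 165 and 144 (96 h). All treated libraries were below both DMSO libraries, and 96 h replicate 2 was the lowest. The log2 fold change was -0.29 at 48 h, which missed the threshold (adjusted p = 0.0567), and -0.47 at 96 h (SE 0.094, adjusted p = 0.00123). TCP1, the alpha subunit after which the family is named (ENSG00000120438, chromosome 6, 159778498 to 159789749, minus strand), was at 217 and 199 CPM in DMSO and at 158 and 154 (96 h), with 165 to 193 in the 6 libraries between. It fell by 0.31 on the log2 scale at 48 h (adjusted p = 0.0324) and by 0.42 at 96 h (adjusted p = 0.00262). CCT4, the delta subunit (ENSG00000115484, chromosome 2, 61868089 to 61888804, minus strand), was at 204 and 195 CPM in DMSO, 163 and 151 (48 h), and 154 and 143 (96 h), and fell by 0.35 (adjusted p = 0.015) and 0.42 (adjusted p = 0.00222) on the log2 scale at 48 and 96 h. The 48 h call of TCP1 was lost on leaving out any 1 of DMSO replicate 1, the 12 h, the 24 h or the 48 h libraries (adjusted p of 0.058 to 0.277), and that of CCT4 on leaving out either 48 h library (0.0517 and 0.234).

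CCT5 and CCT7 had larger fitted falls at 48 h than at 96 h, and CCT3 about equal ones. In none of them did the step from 48 to 96 h pass edgeR's test (adjusted p of 0.742, 0.837 and 0.971). Without both DMSO replicate 2 and 96 h replicate 2, the log2 step went from 0.105 to 0.048 in CCT5. In CCT7 it went from 0.076 to -0.058, so there the order of the 48 and 96 h falls was reversed. CCT5, the epsilon subunit (ENSG00000150753, chromosome 5, 10249921 to 10266412, plus strand), was the most abundant CCT transcript in CPM, at 419 and 449 in DMSO, 378 and 339 (12 h), 366 and 347 (24 h), 332 and 289 (48 h), and 320 and 348 (96 h). Its log2 fold change was -0.48 at 48 h (SE 0.092, adjusted p = 0.00154), the largest fall of the 10 genes at that time, and -0.38 at 96 h (SE 0.092, adjusted p = 0.00677). CCT7, the eta subunit (ENSG00000135624, chromosome 2, 73233420 to 73253021, plus strand), was at 219 and 248 CPM in DMSO, 230 and 210 (12 h), 213 and 193 (24 h), 183 and 165 (48 h), and 167 and 201 (96 h). One 12 h library lay above the lower DMSO library, and the 96 h libraries lay on either side of the 48 h mean. CCT7 fell by 0.42 on the log2 scale at 48 h (adjusted p = 0.011) and by 0.34 at 96 h (adjusted p = 0.0276). CCT3, the gamma subunit (ENSG00000163468, chromosome 1, 156308968 to 156367873, minus strand), was at 302 and 317 CPM in DMSO, 241 and 236 (48 h), and 229 and 244 (96 h), with 268 to 288 between, and fell by 0.37 (adjusted p = 0.00705) and 0.39 (adjusted p = 0.00328). Of the 48 h calls, that of CCT7 was lost without DMSO replicate 2 (adjusted p = 0.0749) or 48 h replicate 2 (0.206), that of CCT5 without 48 h replicate 2 (0.0888), and that of CCT3 without either 48 h library (0.0503 and 0.116).

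CCT6A, the zeta subunit (ENSG00000146731, chromosome 7, 56051630 to 56063989, plus strand), had, with CCT7, the smallest fitted falls of the CCT genes at 96 h. It was at 240 and 209 CPM in DMSO, 209 in both 12 h libraries, 186 and 198 (24 h), 188 and 185 (48 h), and 176 and 179 (96 h). Its log2 fold change was -0.27 at 48 h (adjusted p = 0.0616) and -0.34 at 96 h (adjusted p = 0.0129). The 96 h calls lost on leaving out 1 library were those of CCT6A, CCT7 and CCT5. That of CCT6A was lost without DMSO replicate 1 (log2 fold change of -0.24) or 96 h replicate 1 (-0.32, against -0.34 with all libraries). That of CCT7 was lost without DMSO replicate 2 (-0.25) or 96 h replicate 1 (-0.20), and that of CCT5 without 96 h replicate 1 (-0.31). In each of these fits the log2 fold change stayed negative. At 48 h the number of chaperonin genes called was 4 without DMSO replicate 1, 2 without 48 h replicate 1 and 0 without 48 h replicate 2, against 7 with all libraries, so the 48 h calls depended on both 48 h libraries.

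**Figure D2:**
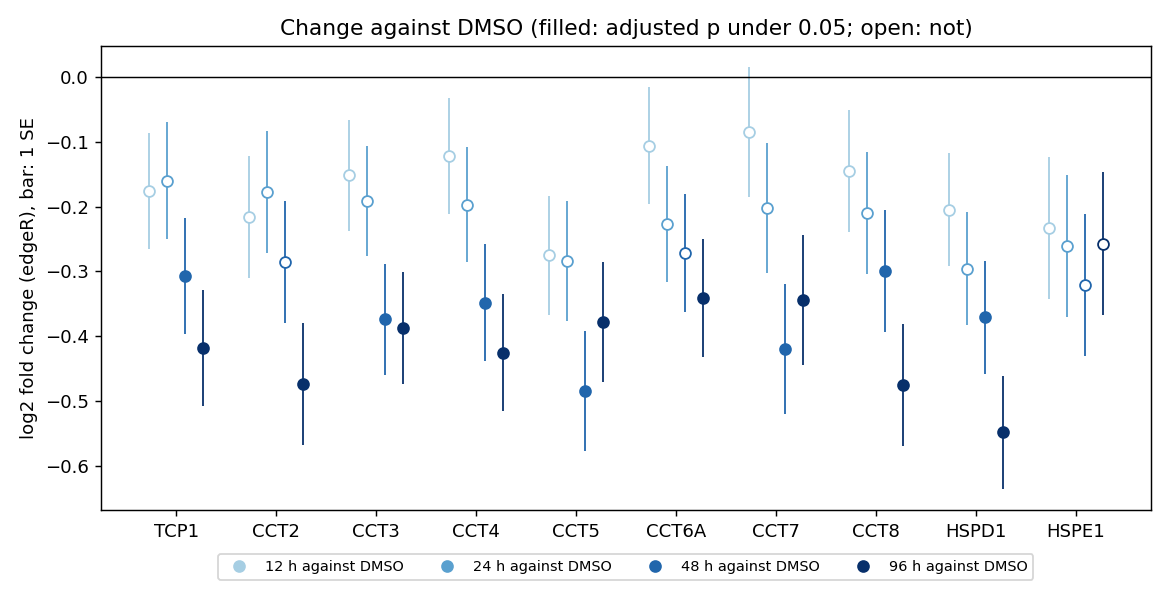
Log2 fold change against DMSO of each chaperonin gene at 12, 24, 48 and 96 h, with its standard error from edgeR's fit. All values are negative; 7 of the 10 genes passed the test at 48 h and 9 at 96 h.

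The summed level of the CCT transcripts was lower at each later time, in steps of which none was called gene by gene. The summed CPM of the 8 CCT genes was 2121 and 2076 in DMSO, 1934 and 1801 (12 h), 1826 and 1795 (24 h), 1671 and 1599 (48 h), and 1576 and 1603 (96 h). The group means were 89, 86.3, 77.9 and 75.7% of the DMSO mean. The summed CPM of HSPD1 and HSPE1 was at 86.6, 81.7, 77.6 and 70% of its own DMSO mean. Between neighbouring times 0 of the 10 genes were called in edgeR's test, where 0% (24 against 12 h), 0.757% (48 against 24 h) and 0.0366% (96 against 48 h) of all genes tested were called in either direction. At an unadjusted p under 0.05, for which the share of all genes was not counted, the counts were 0, 3 and 0. Over the full span, from 12 to 96 h, 2 of 10 were called lower (1.74% of all genes tested), and a joint test of the 4 times against DMSO called 8 of 10 (10.9%), all but CCT6A (adjusted p = 0.0606) and HSPE1 (0.204). Of the 10 genes, 7 had their lowest mean at 96 h and 3 (CCT5, CCT7 and HSPE1) at 48 h. In 7 of the 10 genes all 8 treated libraries lay below both DMSO libraries, the exceptions being CCT6A, CCT7 and CCT8 at 12 h. The share of all genes tested with this separation was not counted, and each time was set against the same DMSO libraries. These are bulk libraries, in which fewer cells expressing a gene and less RNA per cell cannot be told apart.

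The proportions of the CCT subunit transcripts varied less for some subunits than for others. The highest library's share was 1.07 to 1.11 times the lowest for TCP1, CCT3 and CCT4, 1.14 and 1.18 times for CCT6A and CCT8, and 1.22 to 1.25 times for CCT5, CCT7 and CCT2, while the summed CPM varied 1.35-fold. Per kilobase of the principal transcript, the share of the CCT total over the 10 libraries ran from 15.9 to 17.2% for CCT3, 14.3 to 16.8% for CCT8, 12.9 to 15.8% for CCT7, 11.7 to 14.3% for CCT5 and 10.7 to 13.4% for CCT2. It ran from 9.27 to 9.9% for TCP1, 8.94 to 10.2% for CCT6A and 8.57 to 9.55% for CCT4. In DMSO, HSPD1 stood at 297 CPM per kilobase (278 and 316 in the replicates), above every CCT gene, of which CCT3 (144), CCT8 (137), CCT7 (122) and CCT5 (118) were the highest. CCT2 was at 105, HSPE1 at 89.5, TCP1 at 83.3, CCT6A at 82.6 and CCT4 at 79.2. Neighbours in this order had overlapping DMSO replicates, except that HSPD1 lay above CCT3, CCT5 above CCT2 and CCT2 above HSPE1. The order within CCT depends on the length used: per kilobase of all annotated exons CCT8 (70.8, mean of all libraries) came first and TCP1 (36.6) last. CCT6B, the testis form of the zeta subunit, was at 0.983 to 1.73 CPM in the group means.

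**Figure D3:**
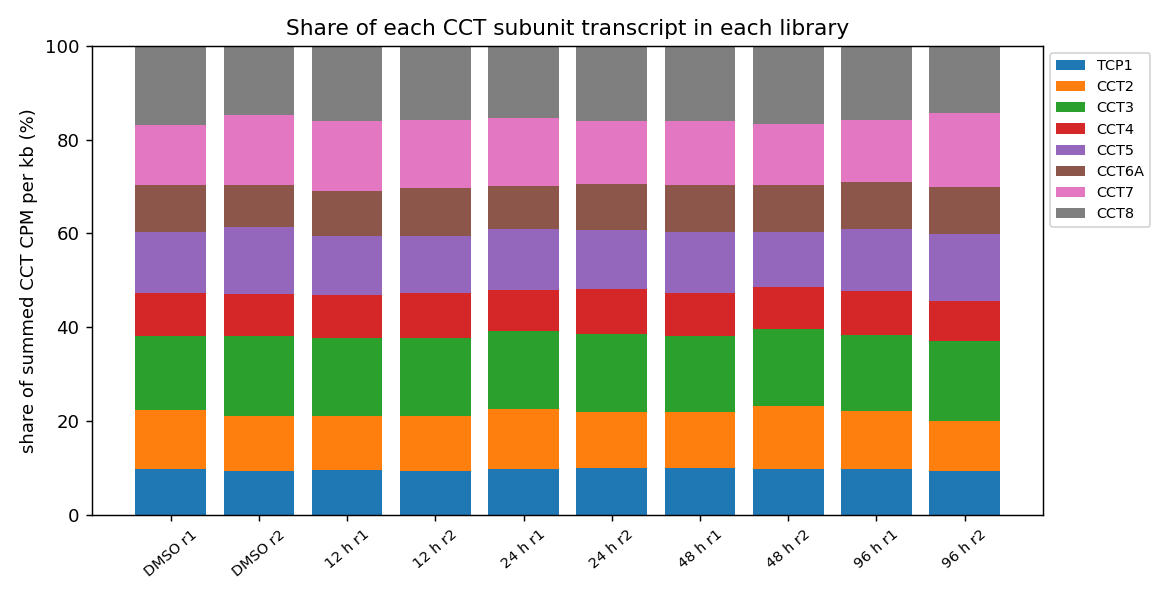
Share of each CCT subunit in the summed CCT CPM per kilobase of principal transcript, in percent, in each of the 10 libraries. The shares of TCP1 (9.27 to 9.9%), CCT3 (15.9 to 17.2%) and CCT4 (8.57 to 9.55%) vary least and those of CCT2 (10.7 to 13.4%), CCT7 (12.9 to 15.8%) and CCT5 (11.7 to 14.3%) most.

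The libraries differed in ways that touch these genes. Total assigned counts ran from 7349744 to 13200051. Replicates differed beyond sampling noise in every group, with a mean chi-square per gene (1 is expected from sampling alone) of 6.88 for DMSO and 9.51 for 96 h and 2.17 to 2.66 for the others, so no 2 libraries were counted as 1. The second replicates of DMSO and of 96 h differed most from their partners, and the difference between replicate 2 and replicate 1 moved with transcript GC content, with a Spearman correlation across genes of 0.58 in DMSO and 0.29 at 96 h, and of -0.058, -0.17 and -0.30 at 12, 24 and 48 h. CCT3, CCT5 and CCT7, with GC contents of 49.1, 46 and 51.1%, were higher in replicate 2 in both groups, by 0.07 to 0.18 in DMSO and 0.1 to 0.27 at 96 h on the log2 scale. The other 7 genes were lower in replicate 2 of DMSO, and 6 of them in replicate 2 of 96 h, CCT6A differing there by 0.02. The GC contents of these 7 genes ran from 41.6% in CCT8 to 46.6% in HSPE1, the latter above that of CCT5. Without these 2 libraries, 3, 4, 10 and 9 of the 10 genes were called lower at 12, 24, 48 and 96 h, where 3.83, 3.92, 6.86 and 7.08% of all genes tested were. With a GC correction fitted to each library 3, 4, 10 and 10 were, where 4.59, 5.21, 8.65 and 10.4% of all genes tested were. The part of GC content in the differences between genes was not tested.

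**Figure D4:**
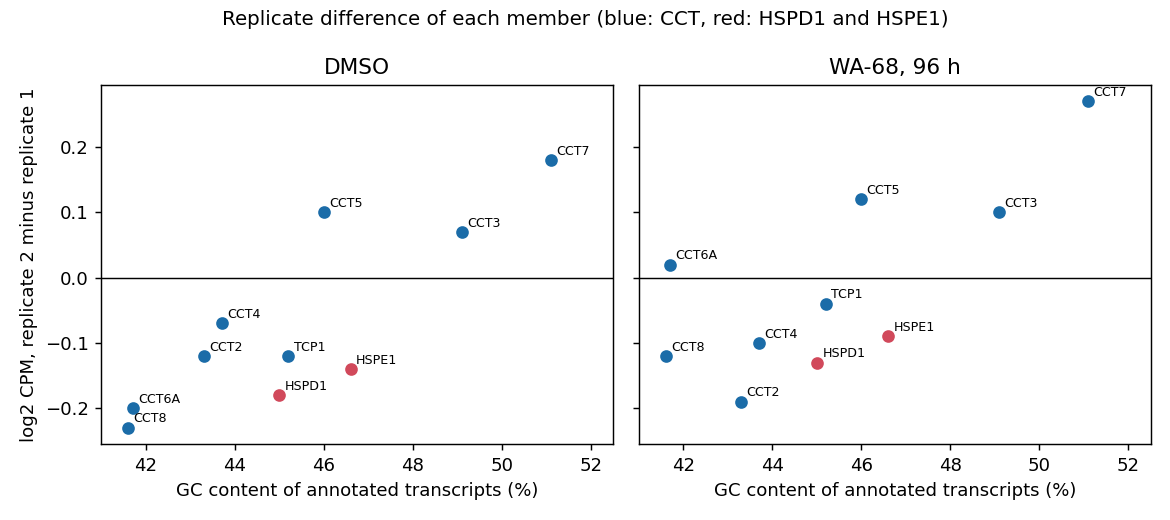
Log2 difference between replicate 2 and replicate 1 of DMSO and of 96 h for the 10 chaperonin genes, against transcript GC content in percent. CCT3, CCT5 and CCT7 lie above 0 in both groups, and most of the other genes lie below.

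Over the 10 libraries, log2 CPM of the chaperonin genes moved together, with Pearson correlations of 0.52 to 0.99 over the 45 pairs (median 0.79). The correlations were 0.91 to 0.93 among CCT3, CCT5 and CCT7, 0.79 to 0.96 among the other 5 CCT genes and 0.52 to 0.90 between these sets, the lowest being CCT2 with CCT7. The points share libraries, depth and base composition, so these values are a description. Among 8562 genes with a mean of at least 20 CPM, the 5 whose pattern was most like the mean of the CCT genes were VDAC1 (r = 0.98), EIF5A (0.98), PRKDC (0.98), ODC1 (0.98) and HSP90AB1 (0.98), which encode the mitochondrial outer membrane channel, a translation factor, the DNA-dependent protein kinase, ornithine decarboxylase and a cytosolic HSP90. The 5 most like the mean of HSPD1 and HSPE1 were CCDC6 (0.99), RPL7L1 (0.97), PRKDC (0.95), METAP1 (0.95) and IARS1 (0.95), of which METAP1 removes the first methionine of new proteins and IARS1 loads tRNA with isoleucine. These genes were picked for the correlation, which is therefore given with no test.

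**Figure D5:**
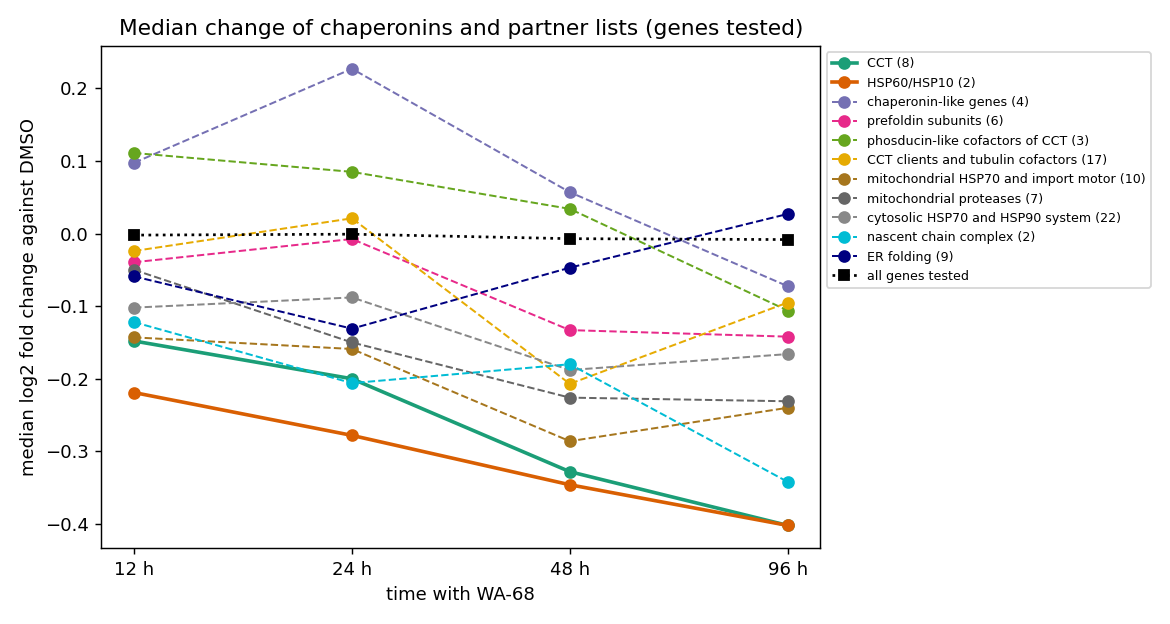
Median log2 fold change against DMSO, at 12, 24, 48 and 96 h, of the CCT genes, the HSP60 and HSP10 genes and the partner lists, with the number of genes tested in each in brackets and the median of all genes tested as a dotted line. The CCT median runs from -0.15 at 12 h to -0.40 at 96 h, and the HSP60/HSP10 median from -0.22 to -0.40.

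Genes that work with CCT were described by lists of related genes. The prefoldin subunits, which hand unfolded actin and tubulin to CCT, had 0 of 6 genes called at 48 or 96 h, with medians of -0.13 and -0.14; the lowest value at 96 h was that of VBP1 (-0.32, adjusted p = 0.0603). None of the 3 phosducin-like cofactors tested was called; at 48 and 96 h PDCL stood at 0.09 and 0.03, TXNDC9 at 0.03 and -0.11, and PDCL3 at -0.21 and -0.22. Of the chaperonin-like genes, which include the BBS proteins MKKS, BBS10 and BBS12, 0 of 4 tested were called. At 48 and 96 h, 5.38 and 6.86% of all genes tested were called lower and 4.01 and 6.14% higher. Lists this small can hold 0 calls at such shares. With the GC offset, 1 of the 6 prefoldin subunits was called lower at 96 h, where 10.4% of all genes tested were. At an unadjusted p under 0.05, 2 prefoldin subunits passed at 48 h and 1 at 96 h, all with lower levels. Of the chaperonin-like genes, 1 passed at 48 h, BBS12, which was higher (log2 fold change of 0.655), and 0 at 96 h. Of the phosducin-like cofactors 0 passed at either time. Of 17 substrates of CCT and tubulin cofactors, 5 were lower at 48 h (5.38% of all genes tested were; median of the list -0.21) and 0 at 96 h (6.86% of all genes; median -0.095, and 3 at an unadjusted p under 0.05). Those called at 48 h were ACTB, the cytoplasmic actin, with -0.34 (adjusted p = 0.0271), TUBA1B with -0.36 (0.0426), TUBA1C with -0.36 (0.02), TUBB4B with -0.37 (0.0202) and CDC20 with -0.44 (0.0233). TUBB6 was at -0.26 with an adjusted p of 0.0855. The 96 h count rested on replicate 2: ACTB was at 1840 and 2318 CPM in the 96 h libraries against a 48 h mean of 1878, TUBA1B at 627 and 866 against 622, and CDC20 at 66.7 and 91.2 against 69.3. Without 96 h replicate 2, 4 of the 17 were called lower at 96 h. The 48 h count was 0 without DMSO replicate 2 or without 48 h replicate 2, 1 without 48 h replicate 1, 3 without either 12 h library or 24 h replicate 2, and 8 without DMSO replicate 1.

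Genes that work beside HSP60 in mitochondria included some that fell. In the mitochondrial HSP70 and import motor list, 3 of 10 were lower at 48 h and 2 at 96 h, beside 5.38 and 6.86% of all genes tested, with medians of -0.29 and -0.24. TRAP1, the mitochondrial HSP90, had a mean of 109 CPM in DMSO, 69.3 after 48 h and 76 after 96 h (log2 fold changes of -0.65 and -0.52, adjusted p = 0.00018 and 0.000728). GRPEL1, the exchange factor of mitochondrial HSP70, went from 29.9 to 21.1 and 20.7 CPM (-0.50 and -0.53, adjusted p = 0.00999 and 0.00367). HSPA9, mitochondrial HSP70 itself, was at -0.25 and -0.24, with adjusted p of 0.0602 and 0.0582. Of 7 mitochondrial proteases, 3 were lower at 48 h (LONP1 -0.30, CLPP -0.36 and HTRA2 -0.44, with adjusted p of 0.0474, 0.048 and 0.0257), and 1 at 96 h, AFG3L2 (-0.32, adjusted p = 0.0165). When 1 library was left out, the 48 h counts ran from 1 to 5 for the import motor list and from 0 to 3 for the proteases (0 without DMSO replicate 2 or either 48 h library), and the 96 h counts from 2 to 3 and from 0 to 1. In the cytosolic HSP70 and HSP90 system, 2 of 22 were lower at 48 h and 4 at 96 h, the former near the 5.38% of all genes tested and the latter beside 6.86%; with 1 library left out the counts ran from 0 to 6 and from 1 to 6. HSP90AB1 was among them at both times (-0.30 and -0.32, adjusted p = 0.0172 and 0.00839). Both subunits of the nascent chain complex, NACA (-0.35, adjusted p = 0.00787) and BTF3 (-0.33, adjusted p = 0.0109), which bind polypeptides as they leave the ribosome, were lower at 96 h, beside 6.86% of all genes tested. Neither was called in edgeR's test at 48 h (-0.15 and -0.21, adjusted p = 0.307 and 0.143) or in the joint test (0.073 and 0.0786). Without 96 h replicate 1 the 96 h median of both moved from -0.34 to -0.30. Of 9 ER folding genes 0 were called against DMSO at 48 or 96 h, also at an unadjusted p under 0.05, and HSPA5, the ER HSP70, was at 0.10 and 0.14. HSPA5 was higher at 96 h than at 12 h, by 0.32 (adjusted p = 0.0363), as 2.39% of all genes tested were.

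Of the regulators looked at with these genes, MYC fell early. It was at 305 CPM in DMSO, 141 at 12 h, 136 at 24 and 48 h, and 126 at 96 h, and the log2 fold changes were -1.12, -1.17, -1.16 and -1.28 (adjusted p of 4.93e-06, 2.75e-06, 1.46e-06 and 1.34e-07). HSF1, the main heat shock factor, was at -0.33 at 48 h (adjusted p = 0.0484) and at -0.29 at 96 h, which missed the threshold (0.0693). The 48 h call of HSF1 is near the threshold. It was lost without DMSO replicate 2 and on leaving out either library of 12, 24 or 48 h. HSF1 was at 105 and 130 CPM in the DMSO libraries and at 95.7 and 90.9 CPM at 48 h. Without DMSO replicate 2, the 48 h median of the 3 regulators tested moved from -0.33, the value of HSF1, to -0.17. HSF2 was at -0.001 at 48 h and -0.106 at 96 h and was not called, and MYCN, with a mean of 0.285 CPM, was too low to be tested. The part of these regulators in the levels of the chaperonin genes was not tested.

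Annotation shows where counts could be shared. In GENCODE v29 the exons of HSPE1 share 192 bases, 9.71% of their union, with the readthrough gene HSPE1-MOB4, which held 0 to 2 counts per library. The exons of HSPD1 and HSPE1 overlap by 281 bases on opposite strands. TCP1 shares 152 bases with 2 small nucleolar RNA genes and has 397 bases opposite ACAT2, while CCT4 has 356 and CCT5 1757 bases opposite other genes. The strand setting of the counting is not given in the sources used here, so reads in those stretches may have been assigned to either gene or to neither. The table has 59 rows for pseudogenes of these genes, of which 31 held counts; their summed CPM was 6.36% of HSPE1, 2.67% of CCT4, 2.2% of CCT6A, 0.75% of HSPD1 and at most 0.361% of any other gene of the 10, and how reads shared with them were counted is not stated. As a check of the cell line, the synovial sarcoma genes TLE1 (217 CPM, mean of the libraries), SS18 (237), SSX1 (51.2) and BCL2 (185) and the mesenchymal gene VIM (929) were present, and PTPRC, PECAM1 and MYOD1 were at 0. CD68, CDH5, DES and ALB did not exceed 0.37 CPM in any library.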

How the data were processed

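RNA from 10 HS-SY-II libraries was measured, with 2 biological replicates in each of 5 groups. Per the labels, the libraries were stranded and poly(A)-selected, with paired ends of 150 bases. The submitters' processing notes name bcl2fastq, FastQC, Trim Galore, cutadapt, STAR, featureCounts and GRCh38; tool versions, gene annotation, strand mode and multi-mapping are not given in the sources at hand. The authors deposited raw counts as whole numbers per gene, with no normalization. Each of the 10 sample columns was used.

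Counts were fitted with edgeR 4.0.16 in R 4.3.3: filterByExpr by group (16382 genes), TMM scaling, glmQLFit with 1 mean per group over all libraries, glmQLFTest and Benjamini-Hochberg adjustment at 0.05. CPM are TMM-scaled. Alternatives used DESeq2 1.42.0 and limma 3.58.1 (voom), other scalings and filters, a GC offset, a replicate block and leaving out libraries. The fit was tested on simulated data. The 10 genes, the lists and the tests were chosen with earlier results of these data known. Named genes were the 10, up to 4 genes of each list with the smallest adjusted p in the joint test among those under 0.05 (or the 2 most abundant where none passed), and the 5 of most like pattern for each chaperonin. ACTB, TUBA1B, HSPA9, VBP1, PDCL3, LONP1, CLPP, AFG3L2, CCT6B, BBS12, HSF1, HSF2 and MYCN were named after their values were seen. Positions and lengths come from GENCODE v29 and promoter windows from RefSeq, GRCh38.p14.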

Additional observations from a re-analysis of the deposited data

Results flagged for a closer look

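For 2 of the 10 genes the fall from DMSO at 96 h differed from that at 12 h in the direct test of the 2 times. The difference of the log2 fold changes was -0.33 for CCT8 (adjusted p = 0.048) and -0.34 for HSPD1 (adjusted p = 0.0241), both in edgeR's test. In CCT8 both 96 h libraries (206 and 189 CPM) lay below both 12 h libraries (260 and 237 CPM), and in HSPD1 (522 and 476 against 665 and 602 CPM) they did too. The CCT8 call was lost in 16 of 24 alternatives and the HSPD1 call in 8 of 24, with the direction kept in all of them. Leaving out either 12 h library, either 24 h library or 96 h replicate 2 ended both calls, and leaving out either 48 h library ended that of CCT8. Over all 24 alternatives the adjusted p ran from 0.0127 to 0.878 for CCT8 and from 0.00198 to 0.787 for HSPD1, the highest being against a 1.2-fold threshold.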

How the results depend on the processing

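Of 1200 values for single chaperonin genes under the alternatives, 1036 kept direction and side of the threshold, 90 lost a call, 69 gained one and 5 changed sign. The 96 h count of 9 genes called lower stayed at 6 to 9 when 1 library was left out, fell to 5 with only the 4 libraries compared and to 1 against a 1.2-fold threshold (glmTreat). HSPD1 kept its 96 h call in all 24 alternatives. The 48 h count of 7 ran from 0 to 10 when 1 library was left out, and was 4 with library size only, 3 at an adjusted p under 0.01, 0 against a 1.2-fold threshold and 4 with only the 4 libraries compared. The 12 h count of 0 stayed at 0 when 1 library was left out, and became 1 with no filter on low counts and 3 with the GC offset or without both DMSO replicate 2 and 96 h replicate 2. The 24 h count of 0 ran from 0 to 2 when 1 library was left out, and was 2 with no filter, 1 with DESeq2 or limma-voom and 4 with the GC offset or without those 2 libraries. The count of 2 from 12 to 96 h ran from 0 to 3 when 1 library was left out, was 1 with RLE size factors, upper-quartile factors, library size only or a filter of 5 CPM in 2 libraries, 5 with the GC offset, and 0 at an adjusted p under 0.01, against a 1.2-fold threshold or with only the 4 libraries compared. The joint count of 8 ran from 4 to 9 when 1 library was left out (4 without 48 h replicate 2) and was 2 at an adjusted p under 0.01. The cause of these changes was not tested. From 12 to 96 h, 4.34% of all genes tested were called lower with the GC offset, against 1.74% in the main fit. With library size only, 3.31% were at 48 h and 1.73% from 12 to 96 h. The share was not counted with the replicate block, with or without the GC offset. Nor was it with RLE or upper-quartile factors, other filters or thresholds, or only the 4 libraries compared. Replicate numbers were not found to pair the samples (correlations of replicate 2 deviations between groups of -0.12 to 0.19): with the replicate block the count from 12 to 96 h was 1, and with the replicate block and GC offset together the counts were 4 at 12 h, 5 at 24 h and 5 from 12 to 96 h; the block alone moved no other count by over 1.5 times. The 5 sign changes were in CCT7 at 12 h (0.005 without both libraries, and -0.177 to 0.007 when 1 library was left out, the latter without DMSO replicate 2) and in HSPE1 from 12 to 96 h (0.023 without both libraries, and -0.112 to 0.082 when 1 was left out, above 0 without 12 h replicate 1 and, at 0.017, without 96 h replicate 2). Where a library was left out, the lone one of its group was assumed to vary like the others. Library size alone moved the median of all genes by at most 0.064.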
